A study of Mus musculus with 8 samples.

Results

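The genes that differed between CJ7 and E14, 2 lines of wild-type mouse embryonic stem cells (ESCs), were described from 1 RNA-seq library of each line. A gene entered the comparison when it was at 1 FPKM or more in either library and above 0 in both. FPKM is the number of sequenced fragments of a gene, scaled to the length of its transcript and to all mapped fragments, so levels of different genes can be compared. This held for 14904 of the 36808 genes of the table. At the edge of this limit, *Gm16179* entered with 1.0 FPKM in E14 and 0.181 FPKM in CJ7, and *Mgll* did not enter with 0.99997 and 0.993 FPKM. Genes that entered are called measured below. A further 473 genes reached 1 FPKM in 1 library and were listed at 0 in the other, and 21431 genes stayed below 1 FPKM in both.

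The study followed wild-type ESCs and ESCs mutant for Polycomb Repressive Complex 2 into spinal motor neurons, and its table holds 8 libraries. E14 is a wild-type line of 129/Ola background and CJ7 a line of 129/S background, here taken as wild type from its title and its use as a wild-type control. Both were grown on irradiated mouse embryonic fibroblasts in serum and LIF, and the fibroblasts were depleted by brief plating before collection. By the labels, the CJ7 library was made and sequenced together with a library numbered ST20, which by the column names is that of Eednull ESCs. CJ7 carries the next number, ST21, while E14 carries ST101 and the other 5 libraries ST102 to ST106. Values in Suz12delta ESCs (C57/BL6 background, *Suz12* truncation) and Eednull ESCs (BALB/cR1 background, *Eed* point mutation) are given beside the comparison, as are those of E14 and Suz12GT (129/Ola, *Suz12* gene trap) cells at day 5 of differentiation. Line, background and library batch cannot be told apart in a comparison of 1 library with 1 library. For the same reason no difference below has a replicate error or a p-value.

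Mouse ESCs are derived from the inner cell mass of the blastocyst and keep themselves undifferentiated through a network of transcription factors around OCT4, SOX2 and NANOG, which LIF acting through STAT3 maintains in serum. Lines derived from different embryos and strains share this network but can differ in imprinting, in signalling, in the small share of cells that pass through a state like the 2-cell embryo, and in the chromosomes they have gained in culture. A wild-type line is the baseline against which a mutant is read, so genes that differ between wild-type lines bear on what a single baseline can show.

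The log2 ratio used throughout is log2 of CJ7 FPKM plus 0.1 over E14 FPKM plus 0.1, which understates the difference of genes with low values. A gene was counted as different when this ratio was 2-fold or more. Of the 14904 genes, 569 (3.82%) were at least 2-fold higher in CJ7 and 1732 (11.6%) lower by as much, while 12603 (84.6%) were within 2-fold. The median log2 ratio of all genes was -0.23, so a gene with no log2 ratio of its own lies below 0 on this scale. When the libraries were scaled to the same 75th percentile the median became -0.01, with 883 genes higher and 1168 lower, and when ratios were centred on their median there were 906 and 1137. The share of higher genes among those past the limit thus went from 24.7% as deposited to 43.1% and 44.3%. The medians of lists below are therefore to be read against -0.23 and not against 0.

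**Figure D1:**
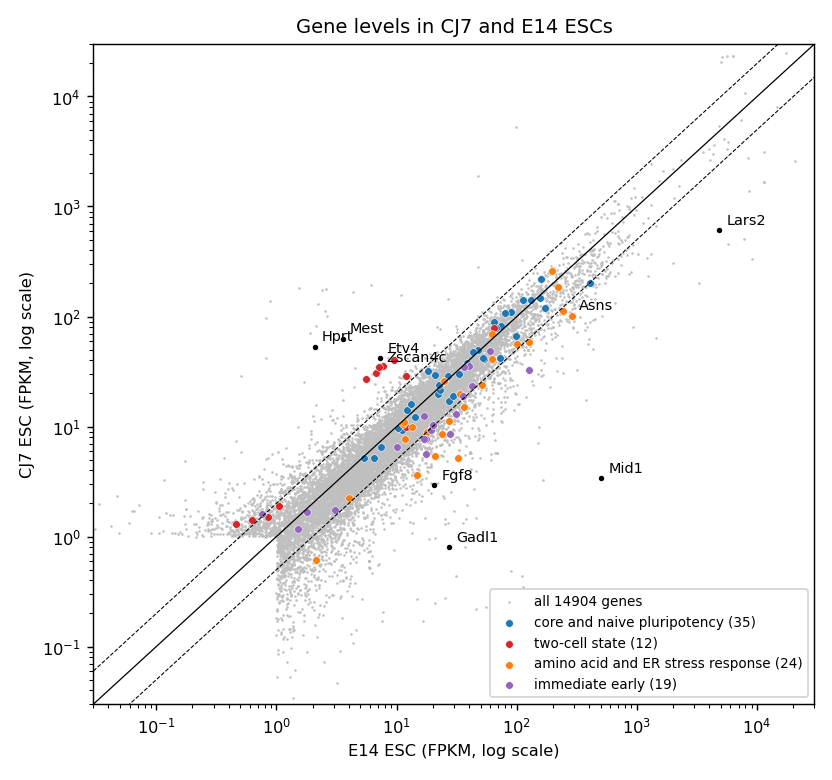
FPKM in E14 ESCs (x axis) and CJ7 ESCs (y axis), both on log scales, for the 14904 genes compared. Grey points are all genes, coloured points are the members of 4 lists, black points are single named genes, the solid line marks equal values and the dashed lines a 2-fold difference. The pluripotency genes lie between the dashed lines, the Zscan4 genes above them, and *Hprt*, *Mest* and *Mid1* far from the line of equal values.

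A block of gene models set CJ7 and Eednull ESCs, the pair of libraries made together, apart from the other 6, and was looked at after its values were seen. The 13 measured genes at the start of chromosome 9 (3000281 to 3038316, NCBI build 37) carry Gm numbers only and were all at least 2-fold higher in CJ7. The block was picked for such values and its models lie side by side, so the count is not 13 separate measures. Any of them below 1 FPKM in E14 entered through its CJ7 value alone, so it could not count as lower. The 13 genes ranged from 0.502 to 4.30 FPKM in E14 and from 28.5 to 181 FPKM in CJ7, and from 54.0 to 314 FPKM in Eednull ESCs. In the remaining 5 libraries they lay between 0.405 and 13.5 FPKM, Suz12delta ESCs and Eednull cells at day 5 included. *Gm10800*, on chromosome 2, was at 98.9 FPKM in E14 ESCs, 5230 FPKM in CJ7 ESCs and 9618 FPKM in Eednull ESCs, and between 65.2 and 336 FPKM in the other 5 libraries. *Gm10722*, on chromosome 9, was 111-fold higher in CJ7 than in E14, wider upwards than any other gene named here. CJ7 and Eednull ESCs do not share a strain or a genotype by their labels, but they do share a library batch, and what part the batch has in this or any other difference from E14 was not tested. The values of Eednull ESCs beside those of CJ7 are therefore not a view from an independent batch.

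The pluripotency genes were within 2-fold of each other in both libraries. Of 36 core and naive pluripotency genes listed, 35 were found under their symbol, all 35 entered the comparison, and 0 were at least 2-fold higher and 0 lower by as much. Their median log2 ratio was -0.07, beside -0.23 for all genes, of which 3.82% were higher and 11.6% lower. *Pou5f1*, which encodes OCT4, was at 130 FPKM in E14 and 142 FPKM in CJ7. *Sox2* was at 67.1 and 78.0 FPKM, and *Nanog* at 155 and 147 FPKM. *Zfp42*, a marker of naive ESCs, was at 113 and 142 FPKM. These 4 genes differed by at most 1.26-fold between the lines. Lower values in CJ7 were found for *Klf4* (72.5 and 42.1 FPKM), *Esrrb* (99.3 and 67.0 FPKM) and *Dppa5a*, which at 407 and 204 FPKM came closest to the limit. All 8 of the ESC markers used to check the label were present in both libraries, down to *Dppa3*, a naive-state gene also known as Stella, at 6.53 and 5.20 FPKM. The 12 measured genes of the LIF receptor and STAT3 list also held 0 genes past the limit in either direction, with *Socs3*, the feedback inhibitor of the pathway, at 8.86 and 9.35 FPKM. With ratios centred on the median or scaled to the same 75th percentile, 1 pluripotency gene passed the limit, *Dppa2* being the gene with the highest ratio of the list (18.2 and 31.8 FPKM).

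Feeder fibroblast markers were detected in both lines at similar levels, and most listed differentiation markers, but not all, were below 1 FPKM in both. The 22 feeder fibroblast markers summed to 593 FPKM in E14 and 491 FPKM in CJ7, against 2762 FPKM in Suz12delta ESCs and 1065 FPKM in Eednull ESCs. Of the 21 that entered the comparison, 2 (9.52%) were at least 2-fold higher in CJ7 and 1 (4.76%) lower, beside 3.82% and 11.6% of all genes. The collagen gene *Col1a1* was at 27.9 and 43.5 FPKM, *Col1a2* at 27.4 and 30.4 FPKM, and *Vim*, encoding the intermediate filament vimentin, at 217 and 171 FPKM. The higher ones were *Postn*, a matrix protein gene, at 2.64 and 6.34 FPKM, and *Dcn*, the decorin gene, at 0.374 and 1.53 FPKM. *Dcn* entered through its CJ7 value alone, so it could only count as higher. Of 29 markers of primitive and visceral endoderm, 17 were below 1 FPKM in both libraries, among them *Gata6* and *Sox17*, and *Gata4* was at 0.653 and 1.27 FPKM. *Cdx2*, the trophoblast regulator, was at 0.394 and 0.296 FPKM. Below 1 FPKM in both were 9 of 15 trophoblast, 8 of 12 neural and 11 of 16 primitive streak and mesoderm genes found. Other markers were well above this. In the endoderm list *Sparc* was at 74.4 and 82.4 FPKM and *Apoe* at 201 and 89.1 FPKM. *Krt8* of the trophoblast list was at 9.78 and 7.94 FPKM, and *Pax6* of the neural list at 8.99 and 15.7 FPKM. *Apoe* was within 2-fold under centring or scaling.

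Among genes at 5 FPKM or more whose symbol is not a Gm, Rik, clone, small RNA or pseudogene name, the widest difference upwards was in *Hprt*, an X-linked gene (X:50341314-50374836, NCBI build 37) for the purine salvage enzyme hypoxanthine phosphoribosyltransferase. *Hprt* was at 2.08 FPKM in E14 ESCs, 53.3 FPKM in CJ7 ESCs, 33.3 FPKM in Suz12delta ESCs and 43.7 FPKM in Eednull ESCs. E14 was the low library and CJ7 the highest of the 4, a difference of 24.5-fold between the wild-type lines (log2 ratio 4.61). E14 cells at day 5 were also low, at 0.652 FPKM, whereas Suz12GT cells at day 5, of the same 129/Ola background, were at 16.5 FPKM. The other 10 measured genes of the X-linked list included none at least 2-fold higher, and 1 lower, *Ogt* (68.8 and 34.3 FPKM), a glycosyltransferase gene just past the limit at a log2 ratio of -1.0. *Xist*, the RNA that silences an X chromosome in female cells, was at 4.55 and 6.64 FPKM, and the Y-linked *Eif2s3y* was at 52.6 and 53.8 FPKM.

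The widest difference downwards by the same rule was also on the X chromosome. *Mid1* (X:166123129-166443668) encodes a microtubule-associated ubiquitin ligase and reaches into the pseudoautosomal region in mice. *Mid1* was at 506 FPKM in E14 ESCs and 3.37 FPKM in CJ7 ESCs, with 29.1 FPKM in Suz12delta and 15.8 FPKM in Eednull ESCs. The E14 value was 146-fold that of CJ7 (log2 ratio -7.19). At day 5 *Mid1* was at 206 FPKM in E14, 142 FPKM in Suz12GT, 69.9 FPKM in Suz12delta and 35.1 FPKM in Eednull cells. *Gadl1*, a relative of the glutamate decarboxylases, had the same order of libraries, with 27.2 FPKM in E14, 0.805 FPKM in CJ7, 6.78 FPKM in Suz12delta and 1.81 FPKM in Eednull ESCs. At day 5 *Gadl1* was at 14.3 FPKM in E14, 12.2 FPKM in Suz12GT, 12.1 FPKM in Suz12delta and 9.67 FPKM in Eednull cells, closer together than in ESCs. *Gad1*, which makes the neurotransmitter GABA, was at 7.13 FPKM in E14 and at 0.558 FPKM in CJ7, and unlike the former pair it was at 0.171 FPKM in E14 cells at day 5.

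**Figure D2:**
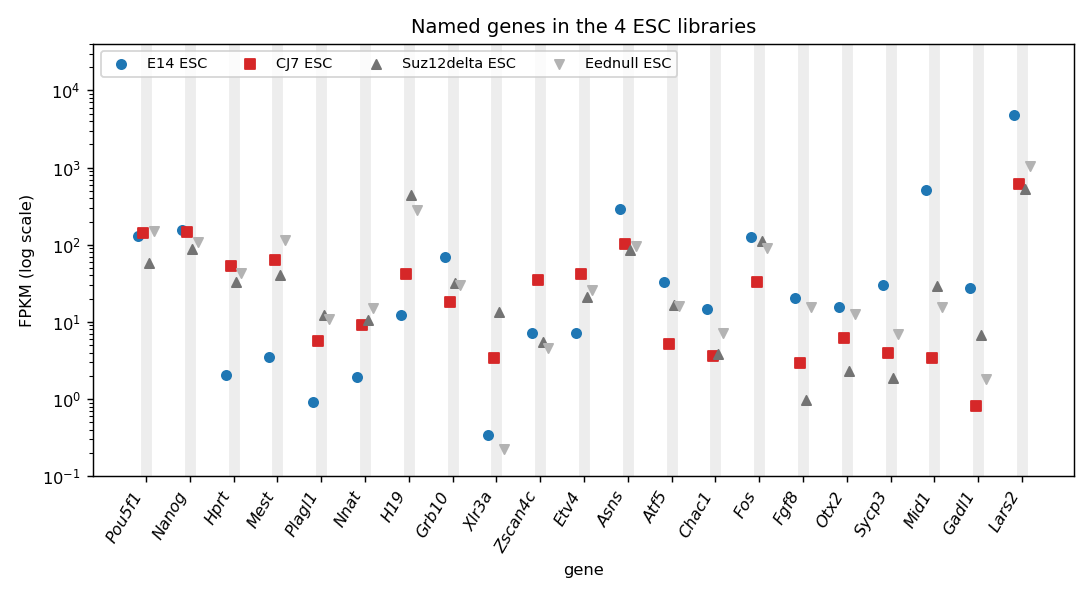
FPKM (log scale) of 21 named genes (x axis) in the 4 ESC libraries. Each point is 1 library, with E14 as blue circles, CJ7 as red squares, Suz12delta as dark triangles and Eednull as light triangles. E14 is the lowest of the 4 for *Hprt*, *Mest*, *Plagl1* and *Nnat* and the highest for *Asns*, *Mid1* and *Gadl1*, while CJ7 is the highest for *Zscan4c*.

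Genes of the 2-cell state formed the list with the highest median. In the mouse 2-cell embryo the zygotic genome is first transcribed, and single ESCs re-enter a like state for a short time, marked by the Zscan4 cluster on chromosome 7. Of 25 genes listed, 20 were found and 12 entered the comparison, of which 8 were at least 2-fold higher in CJ7 and 0 lower, where 3.82% and 11.6% of all genes were. Their median log2 ratio was 1.3. The widest ratios of the list were those of Zscan4 genes, near copies in a single cluster, so the 8 genes are not 8 separate measures. *Zscan4c* was at 7.16 FPKM in E14, 34.7 FPKM in CJ7, 5.54 FPKM in Suz12delta and 4.6 FPKM in Eednull ESCs. *Zscan4d* was at 5.58, 26.8, 4.79 and 3.56 FPKM in the same order, and *Zscan4f* at 9.53, 40.1, 7.17 and 5.38 FPKM. For each of the 3 genes CJ7 stood above the other ESC libraries, which lay within a narrow range. The ratio of CJ7 to E14 was 4.80-fold for *Zscan4c*, 4.73-fold for *Zscan4d*, 4.17-fold for *Zscan4f*, 4.47-fold for *Zscan4b* and 4.26-fold for *Zscan4e*, which was not in the list. *Dux*, whose protein activates 2-cell genes, was at 0.461 FPKM in E14 and 1.31 FPKM in CJ7. It entered through its CJ7 value alone and so could not count as lower. *Eif1a*, a translation factor gene also in the list, was at 64.5 and 78.3 FPKM, within 2-fold.

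The Zscan4 genes are near copies, and their promoters are alike too. Reads from near copies can be shared out among them, so the values above are uncertain for each gene and firmer for the cluster. The stretches shown are promoter sequence, and how alike the transcripts are was not measured here. RefSeq promoters (GRCm38.p6, a later build than that of the expression table) were aligned on their TATA box, and 148 bases are given 5′ to 3′ on the gene's strand, with capitals for bases that differ from *Zscan4c*. The stretches lie at chr7:11005591-11005738 (plus strand) for *Zscan4c*, chr7:10905034-10905181 (minus) for *Zscan4b*, chr7:11166166-11166313 (minus) for *Zscan4d* and chr7:11397784-11397931 (plus) for *Zscan4f*.
Zscan4c: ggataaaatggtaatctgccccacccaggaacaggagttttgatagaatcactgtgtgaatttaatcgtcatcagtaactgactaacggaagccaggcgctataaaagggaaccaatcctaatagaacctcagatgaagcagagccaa
Zscan4b: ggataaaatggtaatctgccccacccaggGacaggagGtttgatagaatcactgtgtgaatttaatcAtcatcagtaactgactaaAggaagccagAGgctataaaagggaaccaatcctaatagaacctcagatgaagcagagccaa
Zscan4d: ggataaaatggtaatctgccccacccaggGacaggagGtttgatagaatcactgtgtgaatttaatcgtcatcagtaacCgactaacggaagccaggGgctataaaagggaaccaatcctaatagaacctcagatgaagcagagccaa
Zscan4f: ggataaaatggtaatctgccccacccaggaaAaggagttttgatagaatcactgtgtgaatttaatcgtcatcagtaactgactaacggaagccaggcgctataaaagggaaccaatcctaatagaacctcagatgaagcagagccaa
Over these 148 bases *Zscan4f* differed from *Zscan4c* at 1 base, *Zscan4d* at 4 and *Zscan4b* at 6, that is an identity of 99.3%, 97.3% and 95.9%.

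The amino acid and ER stress response was the list with the lowest median for the ratios as defined above, but not under every alternative. With ratios centred within groups by GC content, the immediate early list was slightly lower. Relative to all genes, the lowest value under any alternative was -2.54 for primitive streak genes, -0.774 for germline genes and -0.769 for this list. When amino acids run short or proteins misfold in the endoplasmic reticulum, the kinases of the integrated stress response raise translation of ATF4, which switches on genes for amino acid synthesis and uptake together with regulators such as CHOP. Of 25 genes listed, 24 entered the comparison, of which 0 were at least 2-fold higher in CJ7 and 11 lower by as much, and their median log2 ratio was -0.92. *Asns*, the asparagine synthetase gene, was at 289 FPKM in E14, 102 FPKM in CJ7, 85.4 FPKM in Suz12delta and 96.1 FPKM in Eednull ESCs. E14 was thus the high library for *Asns*, and the other 3 were close to each other. *Atf5*, a transcription factor of the same response, was at 32.7 FPKM in E14 and 5.18 FPKM in CJ7, with 16.5 and 16.3 FPKM in Suz12delta and Eednull ESCs. *Chac1*, which degrades glutathione, was at 14.7 FPKM in E14 and 3.66 FPKM in CJ7. *Ddit3*, which encodes CHOP, was at 20.8 and 5.42 FPKM, with 19.2 FPKM in Suz12delta and 7.29 FPKM in Eednull ESCs, so that for *Ddit3* E14 was not alone at the high end.

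The serine synthesis enzymes of this list lay on the same side. *Phgdh*, the first enzyme of the pathway, was at 51.5 FPKM in E14 and 23.7 FPKM in CJ7, and *Psat1*, the next, at 243 and 112 FPKM. *Psph*, the last, was at 36.3 and 14.9 FPKM. *Slc7a3*, a transporter of arginine and lysine, was at 128 and 58.3 FPKM. *Atf4* itself was at 101 and 55.9 FPKM, short of 2-fold. The chaperones and secretory genes of the list were near equal, with *Hspa5* at 220 and 187 FPKM, *Xbp1* at 24.7 and 25.7 FPKM and *Hsp90b1* at 197 and 259 FPKM. *Pck2*, the mitochondrial enzyme that makes phosphoenolpyruvate, was not in the list but was among the 12 genes with the lowest ratios, at 37.2 FPKM in E14 and 5.46 FPKM in CJ7. Among genes picked out after their values were seen, *Pycr1* of proline synthesis was at 40.3 and 7.82 FPKM and the stress gene *Nupr1* at 24.0 and 5.43 FPKM. With ratios centred on the median of all genes, 8 of the 24 genes of the list were at least 2-fold lower, and 7 when ratios were centred within 10 groups by GC content.

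The element bound by ATF4 with C/EBP factors was searched for in RefSeq promoters (GRCm38.p6, from 250 bases before to 50 bases after a start site), as the letters TGATGNAA on either strand. It was in 4.51% of all 27025 promoters of the table, in 233 of the 8557 (2.72%) that belong to genes compared here, and in 5 of the 22 genes of the list that had one (22.7%), of which 2 were at least 2-fold lower in CJ7, as were 28 of those 233. These 2 are shown with the match in capitals, *Asns* at chr6:7693205-7693252 (minus strand) and *Chac1* at chr2:119351029-119351076 (plus strand), where the match reads as the reverse complement.
Asns: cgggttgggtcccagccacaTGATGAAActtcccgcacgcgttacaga
Chac1: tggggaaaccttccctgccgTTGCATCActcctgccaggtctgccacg
The match is a match of letters and no measure of binding.

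Immediate early genes, which answer serum, growth factors and handling within minutes, had the next lowest median. Of the 19 genes listed, all entered the comparison, 0 were at least 2-fold higher and 7 lower by as much, and the median log2 ratio was -0.87. *Fos* was at 127 FPKM in E14, 32.8 FPKM in CJ7, 111 FPKM in Suz12delta and 91.3 FPKM in Eednull ESCs, and *Fosb*, a second FOS family gene, at 27.8, 8.49, 25.8 and 18.5 FPKM. CJ7 was the low library of the 4 for both. *Atf3*, a stress-induced repressor, was at 17.6 FPKM in E14 and 5.64 FPKM in CJ7. *Klf6* was at 31.3 and 13.1 FPKM and the nuclear receptor gene *Nr4a1* at 17.6 and 7.70 FPKM. *Egr1*, a further early gene, was at 60.2 and 48.1 FPKM, within 2-fold. With ratios centred on the median, 4 of the 19 genes were at least 2-fold lower and 1 higher, and *Nr4a1* was within 2-fold. Times between handling and lysis are not given in the sources used here.

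**Figure D3:**
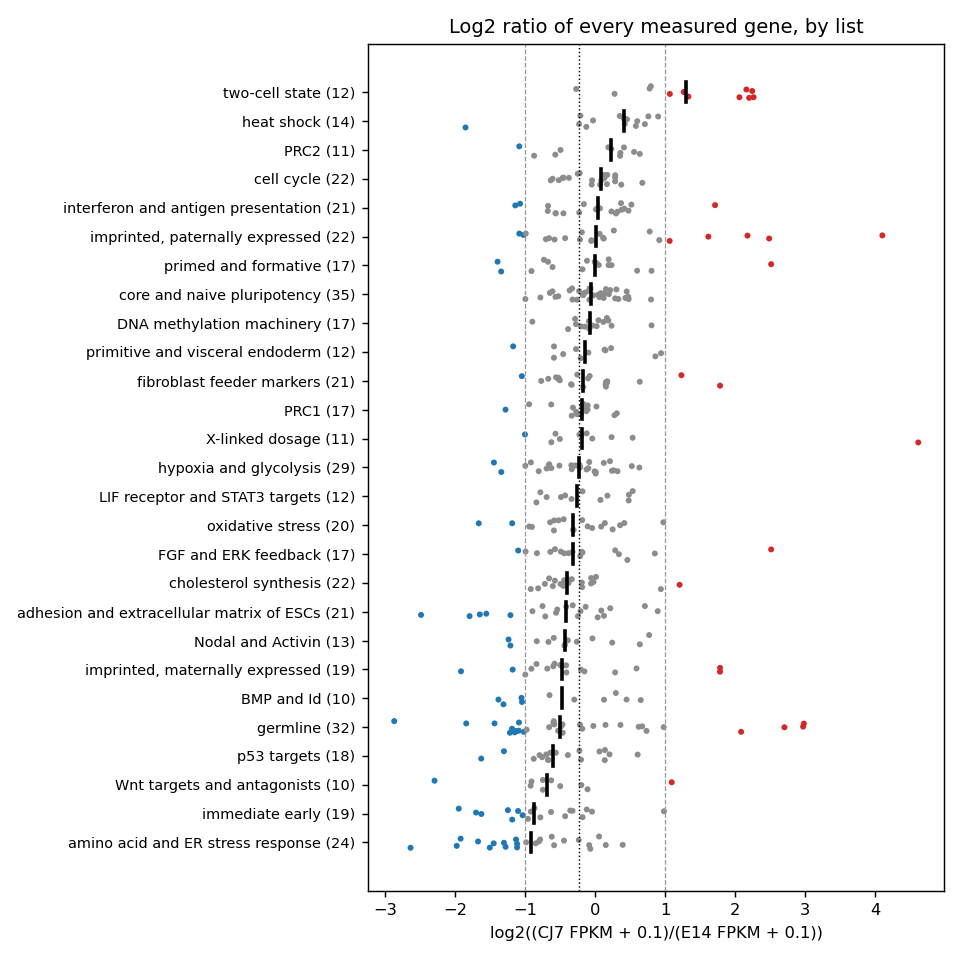
Log2 ratio of CJ7 to E14 (x axis) for each measured gene of the lists with at least 10 such genes (y axis, number in parentheses), in order of their medians. Red points are at least 2-fold higher in CJ7, blue points at least 2-fold lower, black bars are medians, dashed lines mark 2-fold and the dotted line is the median of all genes, -0.23. The 2-cell list is at the top with a median of 1.3, and the immediate early and amino acid lists at the bottom with -0.87 and -0.92.

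Imprinted genes, which are expressed from the maternal or the paternal chromosome only, included some of the widest differences upwards. Of 32 paternally expressed genes listed, 22 entered the comparison, with a median log2 ratio of 0.01. In CJ7 5 (22.7%) were at least 2-fold higher and 2 (9.09%) lower. Over all genes 3.82% were higher and 11.6% lower, so the share of lower genes was near that of all. Among the higher ones, *Plagl1* and *Dio3* (0.286 and 1.08 FPKM) were below 1 FPKM in E14. Both entered through their CJ7 value alone, so they could not count as lower. Under scaling or centring 0 genes of the list were lower, and 6 or 7 were higher. *Mest* (chromosome 6, 30673547 to 30698457), which encodes a hydrolase-like protein, was at 3.57 FPKM in E14, 62.8 FPKM in CJ7, 40.1 FPKM in Suz12delta and 116 FPKM in Eednull ESCs. E14 was the only one of the 4 below 40 FPKM, and the ratio of CJ7 to E14 was 17.2-fold. *Plagl1*, a zinc finger gene of the imprinted network, was at 0.918 FPKM in E14 and 5.60 FPKM in CJ7, with 12.2 and 11 FPKM in Suz12delta and Eednull ESCs. *Nnat*, encoding neuronatin, was at 1.92 and 9.04 FPKM, with 10.7 and 15.2 FPKM. For these 3 genes E14 ESCs were the low library. The summed feeder fibroblast markers were also higher in the mutant ESC libraries than in E14, and the part of feeder cells was not tested. E14 cells at day 5 were at 6.74 FPKM for *Mest* and 0.468 FPKM for *Plagl1*, while Suz12GT cells at day 5 were at 38.3 and 48 FPKM. Other paternally expressed genes were near equal, such as *Snrpn* at 47.0 and 41.2 FPKM, or within 2-fold, such as *Igf2* at 10.3 and 17.8 FPKM and *Peg3* at 13.3 and 8.37 FPKM.

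Of 29 maternally expressed genes listed, 19 entered the comparison, with a median log2 ratio of -0.47. In CJ7 2 (10.5%) were at least 2-fold higher and 2 (10.5%) lower. Over all genes 3.82% were higher and 11.6% lower, so the share of lower genes was near that of all. Of the 2 higher genes, *Dcn* was below 1 FPKM in E14 and could only count as higher. *H19*, a non-coding RNA beside *Igf2*, was at 12.2 FPKM in E14 and 42.3 FPKM in CJ7, both far below the 447 FPKM of Suz12delta and 286 FPKM of Eednull ESCs. Feeder fibroblast markers were also higher in these mutant libraries, and the part of feeder cells in these values was not tested. *Grb10*, an adaptor that restrains insulin signalling, was at 69.3 FPKM in E14 and 18.3 FPKM in CJ7, with 32.2 and 30.0 FPKM in the mutant lines. *Igf2r*, the receptor that clears IGF2, was at 24.6 and 10.8 FPKM, and was within 2-fold when ratios were centred. *Meg3*, a non-coding RNA of the *Dlk1* and *Dio3* region, was at 173 and 86.8 FPKM, just within 2-fold, and its neighbour *Rian* was at 86.1 and 77.5 FPKM. In the mutant ESC lines *Meg3* was at 97.5 and 90.6 FPKM.

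Germline genes went both ways. Of 50 listed, 32 entered the comparison, with a median log2 ratio of -0.51. In CJ7 4 (12.5%) were at least 2-fold higher and 10 (31.25%) lower, beside 3.82% and 11.6% of all genes. The 4 higher genes were neighbours of 1 family on the X chromosome. All 4 were below 1 FPKM in E14 and entered through their CJ7 value alone, so they could only count as higher. With a pseudocount of 1, *Xlr3c* and *Xlr4a* were within 2-fold. *Xlr3a* was at 0.342 FPKM in E14, 3.37 FPKM in CJ7, 13.5 FPKM in Suz12delta and 0.226 FPKM in Eednull ESCs, and *Xlr3b*, *Xlr3c* and *Xlr4a* had the same order of libraries, with CJ7 at 2.57, 1.48 and 1.07 FPKM. These are near-identical copies whose reads may be shared among them. The lower genes included 6 of meiosis. *Sycp3*, of the synaptonemal complex that pairs meiotic chromosomes, was at 29.7 FPKM in E14, 3.98 FPKM in CJ7, 1.87 FPKM in Suz12delta and 6.89 FPKM in Eednull ESCs, and E14 was the high library. The meiotic cohesin gene *Smc1b* was at 3.48 and 0.900 FPKM, and *Hormad1*, which marks unpaired meiotic axes, at 7.34 and 3.17 FPKM. *Dazl*, an RNA-binding protein of germ cells, was at 6.46 and 3.23 FPKM, and *Ddx4*, the VASA helicase gene, at 9.0 and 6.49 FPKM. With ratios centred on the median the counts were 5 higher and 3 lower.

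Signalling lists differed at single genes. The genes for inhibitors of DNA binding that BMP induces in serum were lower in CJ7, *Id1* at 21.4 and 10.3 FPKM and *Id3* at 39.0 and 18.8 FPKM. Of the 10 measured genes of the BMP list 4 were at least 2-fold lower and 0 higher, beside 11.6% and 3.82% of all genes. *Id1* and *Id3* came within 2-fold under centring or scaling, which left 2, *Bmp7* and *Bambi*. *Bmp4* was at 5.56 and 6.85 FPKM. Of the 13 measured Nodal and Activin genes 2 were lower, *Foxh1*, a cofactor of SMAD2, at 19.8 and 8.35 FPKM, and the receptor gene *Acvr2b* at 13.3 and 5.70 FPKM, which was within 2-fold under centring or scaling. Centred within 10 groups by GC content *Foxh1* was within 2-fold too, which left 0 lower and 1 higher. *Nodal* was at 16.5 and 9.21 FPKM, *Lefty1* at 193 and 147 FPKM. Of the 10 measured genes of the Wnt list, *Sp5*, a direct target of the pathway, was at 8.12 FPKM in E14, 1.58 FPKM in CJ7, 0.838 FPKM in Suz12delta and 1.39 FPKM in Eednull ESCs, with E14 the high library, and *Axin2*, another target, was at 10.9 and 6.44 FPKM.

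In the FGF and ERK list, *Etv4* stood apart from its relatives. *Etv4*, an ETS factor induced by FGF, was at 7.27 FPKM in E14, 42.0 FPKM in CJ7, 20.9 FPKM in Suz12delta and 25.9 FPKM in Eednull ESCs, 5.71-fold higher in CJ7. *Etv5*, of the same family, was at 89.1 and 57.1 FPKM, and the feedback phosphatase gene *Dusp6* at 19.2 and 9.61 FPKM. Of the 17 measured genes 1 (5.88%) was at least 2-fold higher and 1 (5.88%) lower, beside 3.82% and 11.6% of all genes. The lower one, the phosphatase gene *Dusp4*, was at 12.7 and 5.89 FPKM, and within 2-fold under centring or scaling. *Fgf8*, a ligand of the primitive streak, was at 20.5 FPKM in E14, 2.93 FPKM in CJ7, 0.974 FPKM in Suz12delta and 15.6 FPKM in Eednull ESCs, so that E14 and Eednull ESCs were high and CJ7 and Suz12delta ESCs low. *Otx2*, which marks the exit from the naive state, was at 15.8, 6.19, 2.31 and 12.5 FPKM in the same order of libraries. *T*, the brachyury gene, was at 2.60 and 1.65 FPKM. Of the 17 primed and formative genes 1 was at least 2-fold higher and 2 lower, and *Dnmt3b*, a DNA methyltransferase of the primed state, was at 50.9 and 51.7 FPKM.

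Epithelial claudins, the strands of tight junctions, were lower in CJ7 together. *Cldn3* was at 8.83 FPKM in E14, 1.49 FPKM in CJ7, 12.9 FPKM in Suz12delta and 8.06 FPKM in Eednull ESCs, and *Cldn7* at 13.7, 3.90, 34.5 and 28.4 FPKM. *Cldn4* was at 28.9, 9.16, 39.5 and 19 FPKM, and *Cldn6* at 17.7, 5.96, 21.7 and 30.4 FPKM. CJ7 was the low library of the 4 for each of the 4 claudins. *Lama5*, a basement membrane laminin gene, was at 33.3 and 14.3 FPKM. With it the claudins made up the 5 of 21 adhesion genes (23.8%) at least 2-fold lower, beside 11.6% of all genes. In this list 0 were higher, and *Lama5* was within 2-fold under centring or scaling. *Cdh1*, the E-cadherin gene, was at 46.8 and 51.1 FPKM, and *Epcam* at 24.1 and 20.3 FPKM.

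Several lists had shares past the limit near or below those of all genes, which were 3.82% higher and 11.6% lower. The 22 cell cycle genes and the 17 genes of DNA methylation had 0 in either direction, with *Ccnd1* at 31.4 and 34.4 FPKM and *Dnmt1*, the maintenance methyltransferase gene, at 35.0 and 18.7 FPKM. Under scaling or centring 1 gene of DNA methylation was higher, *Dnmt3l*, a cofactor of the methyltransferases, at 34.3 and 60.04 FPKM. Of the 11 PRC2 genes, *Phf1*, an accessory subunit, was lower (3.31 and 1.51 FPKM), whereas the core genes were within 2-fold, *Ezh2* at 60.8 and 71.4 FPKM, *Suz12* at 41.3 and 53.1 FPKM and *Eed* at 32.7 and 50.9 FPKM. Of the 17 measured PRC1 genes 1 was lower, *Pcgf1* (9.06 and 3.67 FPKM), and *Cbx7* was at 61.5 and 39.8 FPKM. Of 18 measured p53 targets 2 were lower, *Bbc3*, the PUMA gene of apoptosis (29.3 and 9.41 FPKM), and *Sesn2* (27.6 and 11.1 FPKM), and *Sesn2* was within 2-fold when centred within groups by GC content, while *Trp53* itself was at 134 and 155 FPKM. Of 29 hypoxia and glycolysis genes 2 were lower, the angiogenic factor gene *Vegfa* (19.4 and 7.06 FPKM) and the mitophagy gene *Bnip3* (21.8 and 8.56 FPKM). The 14 heat shock genes had a median of 0.42, which was 0.64 above that of all genes, and 12 of the 14 lay above the latter. Of the 14, 1 was at least 2-fold lower, *Hspb8* (15.0 and 4.08 FPKM). Under scaling or centring on the median, 1 was also at least 2-fold higher. Of 22 measured cholesterol synthesis genes 1 was higher, *Idi1* (9.17 and 21.3 FPKM). Of 20 oxidative stress genes 2 glutathione transferase genes were lower, *Gstt1* (3.10 and 0.912 FPKM) and *Gstm1* (21.1 and 9.23 FPKM). Of 21 measured interferon and antigen presentation genes *Oas1a* was higher (1.86 and 6.32 FPKM), and *Bst2* and *Ifitm1* lower (42.4 and 19.2 FPKM, 86.0 and 40.8 FPKM). *Phf1*, *Gstm1*, *Bst2* and *Ifitm1* were within 2-fold under centring or scaling. Of 6 measured trophoblast and 4 measured Y-linked genes 0 were past the limit in either direction. Of 34 Hox genes 32 stayed below 1 FPKM in both libraries.

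Several gene families differed as groups. Of all genes, 3.82% were at least 2-fold higher in CJ7 and 11.6% lower. Of 82 measured cytosolic ribosomal protein genes 0 were at least 2-fold higher in CJ7 and 27 (32.9%) lower, with a median log2 ratio of -0.65. The 68 of these with over 700 bases of exon had a median of -0.65 too, and 20 were lower. Other protein-coding genes of that length had a median of -0.20, and 850 of 11621 were lower. The 14 shorter ribosomal protein genes had a median of -0.98, and 7 were lower. *Rps29* was at 431 FPKM in E14 and 50.2 FPKM in CJ7, with 184 FPKM in Suz12delta and 144 FPKM in Eednull ESCs. Of 66 measured replication-dependent histone genes, whose mRNAs lack a poly(A) tail, 12 were at least 2-fold higher and 0 lower, with a median of 0.64 and all 66 above the median of all genes. Centred within 10 groups by GC content, 26 were higher and 0 lower. *Hist1h2ao* and *Hist1h2ap* had the same values, 101 FPKM in E14 and 135 FPKM in CJ7. Reads may be shared among such genes, so the 66 are not 66 separate measures. *Hist2h3b* was at 7.86 and 20.9 FPKM and *Hist1h3g* at 9.21 and 22.9 FPKM, the 2 genes being picked after their values were seen. Of 20 measured mitochondrial tRNA genes 11 were higher and 2 lower, from *mt-Tg* at 6.18 and 193 FPKM to *mt-Ts1* at 1440 and 64.0 FPKM, whereas the mitochondrial mRNAs *mt-Co1* and *mt-Nd1* were at 5265 and 4131 FPKM and at 353 and 429 FPKM. In Eednull ESCs *mt-Tg* was at 159 FPKM, *mt-Ts1* at 114 FPKM and *Hist1h3g* at 20 FPKM, on the side of CJ7, but *mt-Tv* (4.40 FPKM in E14 and 22.8 FPKM in CJ7) was at 3.63 FPKM in Eednull ESCs, on the side of E14. *mt-Tg* was also high in Suz12delta ESCs, at 94.7 FPKM. Of 164 measured small nucleolar RNA genes 14 (8.54%) were higher and 69 (42.1%) lower. *Lars2*, the mitochondrial leucyl-tRNA synthetase gene, was at 4822 FPKM in E14 and 609 FPKM in CJ7, with 536 and 1053 FPKM in Suz12delta and Eednull ESCs and 647 FPKM in E14 cells at day 5, so E14 ESCs stood apart.

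Transcript length and base composition moved with the ratio. Among protein-coding genes, those with up to 500 bases of exon had a median log2 ratio of -0.61 and 37.2% of the 242 genes were at least 2-fold lower in CJ7, against -0.19 and 5.62% of the 5286 genes over 4000 bases. Short genes were also more often at least 2-fold higher, 7.44% of those up to 500 bases and 1.59% of those over 4000. In 10 groups of equal size by GC content, the lowest group had a median of -0.04 with 5.10% at least 2-fold lower, and the highest had -0.32 with 12.9% lower. Over all 12149 protein-coding genes, 2.90% were higher and 8.31% lower. Centred within 10 groups by GC content, the list medians were 1.57 for the 2-cell genes, -0.62 for the amino acid response, -0.63 for the immediate early genes, -0.47 for the ribosomal protein genes and 0.92 for the histone genes. The part of GC content, length or library preparation in these differences was not tested.

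**Figure D4:**
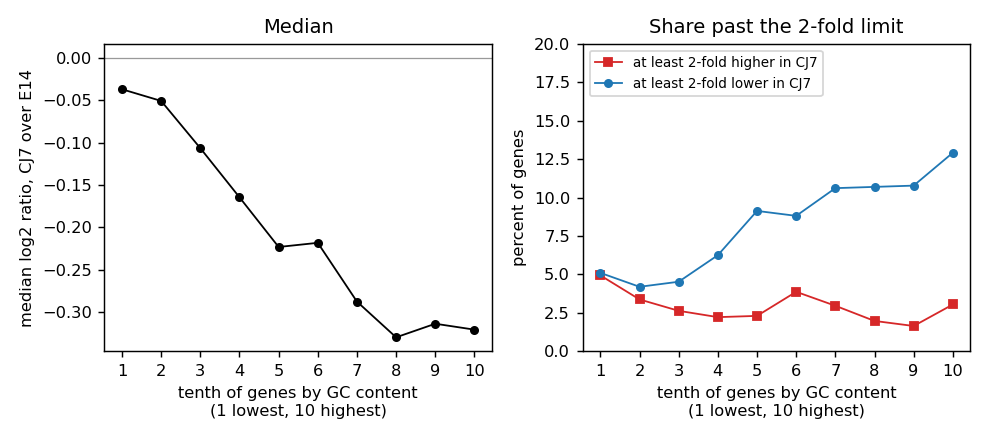
Protein-coding genes in 10 groups by the GC content of their longest transcript (x axis, 1 lowest to 10 highest). The left panel gives the median log2 ratio of CJ7 to E14, which goes from -0.04 to -0.32, and the right panel the percentage of genes at least 2-fold higher (red) and lower (blue) in CJ7, the latter going from 5.10% to 12.9%.

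Chromosomes 8 and 11 stood above the others over their whole length. Gains of these chromosomes are known in mouse ESCs kept in culture, but copy number was not measured here. The 614 protein-coding genes of chromosome 8 had a median log2 ratio 0.32 above that of the other autosomes, and the 983 of chromosome 11 one 0.30 above, whereas the remaining autosomes lay between -0.17 and 0.03. On chromosome 8, 56.8% of the genes had a log2 ratio above 0, and on chromosome 11 55.8%, beside 20.9% (chromosome 15) to 37% (chromosome 13) on the other autosomes. Cut into stretches of 20 Mb with at least 20 genes, all 7 stretches of chromosome 8 were 0.19 to 0.44 above the median of all protein-coding genes, and all 7 of chromosome 11 were 0.18 to 0.41 above it. These 14 stretches were among the 20 highest of 136, and 6 of the other 122 reached 0.2. The highest stretch of all, from 20 to 40 Mb of chromosome 13 at 0.52, holds 53 histone genes, and its other 64 genes were at -0.02. In Suz12delta and Eednull ESCs relative to E14, chromosome 8 was at -0.06 and -0.02 and chromosome 11 at 0.07 and 0.04 by the same measure. Centring within 10 groups by GC content left the medians at 0.32 and 0.30.

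**Figure D5:**
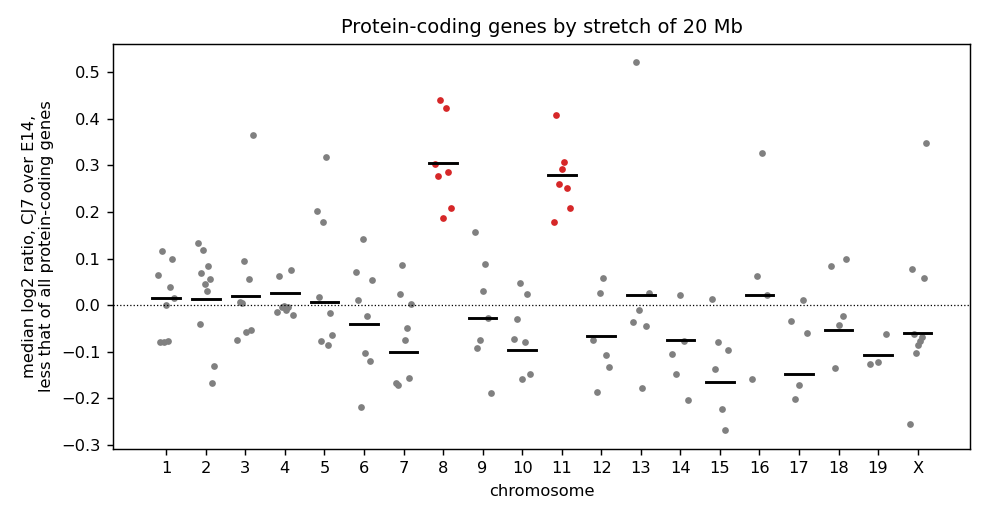
Median log2 ratio of CJ7 to E14 of protein-coding genes in stretches of 20 Mb with at least 20 genes (points), less the median of all protein-coding genes (y axis), by chromosome (x axis). Black bars are the medians of whole chromosomes. All 7 points of chromosome 8 and all 7 of chromosome 11, in red, lie at 0.18 or above, and the highest point is the stretch of chromosome 13 with the histone genes.

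The shift of both chromosomes was broad and small. On chromosome 8, 24 of 614 genes (3.91%) were at least 2-fold higher and 26 (4.23%) lower, and on chromosome 11 42 of 983 (4.27%) were higher and 40 (4.07%) lower, beside 2.90% and 8.31% of all protein-coding genes. *Etv4*, on chromosome 11, was the gene of either chromosome with the widest difference upwards among those at 5 FPKM or more. *Ddc*, the decarboxylase that makes dopamine and serotonin, also on chromosome 11, was at 2.78 FPKM in E14, 12.5 FPKM in CJ7, 3.65 FPKM in Suz12delta and 6.09 FPKM in Eednull ESCs. *Hspa4*, a chaperone gene of the HSP110 family on chromosome 11 that was picked after its value was seen, was at 110 FPKM in E14 and 324 FPKM in CJ7. *Suz12* is on chromosome 11 as well, and *Zfp42* and *Cdh1* are on chromosome 8, where *Bst2* and *Dusp4* were among the lower genes.

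Further genes among the 12 highest and 12 lowest ratios were of other kinds. *Cd37*, a tetraspanin of blood cells, was at 1.5 FPKM in E14, 9.99 FPKM in CJ7, 1.29 FPKM in Suz12delta and 5.84 FPKM in Eednull ESCs, and *Mmp13*, a collagenase gene, at 1.03, 5.83, 12.7 and 2.54 FPKM. *Lyz2*, the lysozyme gene of macrophages, was at 6.94, 0.551, 21.7 and 0.229 FPKM, with E14 and Suz12delta ESCs high. *Nme3*, a nucleoside diphosphate kinase gene, was at 14.2 FPKM in E14 and 2.08 FPKM in CJ7, and *Tmsb15b2*, a beta-thymosin gene, at 5.91 and 0.522 FPKM. *Glud1*, which encodes glutamate dehydrogenase, has 2 identifiers in the table, and they went in opposite directions, one at 22.9 and 76.4 FPKM and the other at 73.3 and 11.3 FPKM. Reads may be split between the 2 entries differently in the libraries, so no direction is given for *Glud1*.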

How the data were processed

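RNA-seq was analysed in 1 library each of CJ7 and E14 ESCs, with the other 6 libraries of the table as values beside them. All 8 columns of values were matched to samples by name. The values are FPKM as deposited by the authors, who aligned reads to NCBI build 37 (Bowtie 0.12.7 under TopHat 1.3.2) and estimated levels of Ensembl genes in Cuffdiff, part of Cufflinks 1.2.1, correcting for sequence bias and for reads that map to several places. FPKM holds no counts, and among 3772 genes below 0.5 FPKM in both libraries the commonest ratio was shared by 0.742%, so depth is unknown and no interval is given. Strand was not stated, so overlapping antisense genes cannot be told apart. An exact 0 can be a failed estimate, and genes at 0 in 1 library were left out of ratios.

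From these values log2 ratios with a pseudocount of 0.1 were computed with Python 3.11.15, NumPy 2.4.6 and pandas 2.3.3, and the calculation was tested on simulated data. Gene types, positions and exon lengths are from GENCODE vM1, on build 37, which held 14846 of the 14904 genes. GC content is that of the longest coding transcript. A symbol with several identifiers was taken at the higher value. The genes compared, the 32 lists and the 19 families were chosen with earlier results of these data known. Genes named were the anchors of each list, up to 5 genes per list with the widest differences past 2-fold, and the 12 highest and 12 lowest ratios among genes at 5 FPKM or more in the higher library, leaving out symbols of the Gm, Rik or clone kind, small RNAs and pseudogenes. Other genes named were chosen after their values were seen. The alternatives tried were pseudocounts of 1 and 0, minima of 5 and 0 FPKM, scaling to the 75th percentile, centring, keeping genes at 0, protein-coding genes alone and, added after the data were seen, centring within 10 groups by GC content.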

Additional observations from a re-analysis of the deposited data

How the results depend on the processing

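The counts of 569 genes at least 2-fold higher in CJ7 and 1732 lower by as much depended on scaling and on low values. A pseudocount of 1 gave 268 higher and 1087 lower, a minimum of 5 FPKM gave 225 and 1031, and no minimum gave 1312 higher. Scaling to the same 75th percentile gave 883 higher and 1168 lower, centring on the median 906 and 1137, protein-coding genes alone 352 and 1009, and centring within 10 groups by GC content, added after the data were seen, 561 lower and 568 higher of 12149. The count was within 1.5 times for higher and lower genes without a pseudocount (613 and 1834) and with genes at 0 kept (786 and 1988). It was also within 1.5 times for lower genes without a minimum (2190) and with the same 75th percentile (1168). The same held for higher genes centred within groups by GC content (568). Of 84 named genes past 2-fold, 56 were past it under every setting, while 17 came within it by scaling and 17 by centring, among them *Id1*, *Id3*, *Igf2r*, *Phgdh* and *Slc7a3*. That 0 changed direction was fixed in advance. A pseudocount cannot turn a ratio around, and scaling and centring moved ratios by far less than the 2-fold limit. No paired analysis was possible because each line had 1 library. Depth is unknown, and the errors of single genes are therefore unknown too.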

Other observations

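Genes listed at 0 in 1 of the libraries could not be given a ratio. Of the 473 such genes, 256 were at 0 in CJ7 and 217 at 0 in E14, with 83 and 64 protein-coding genes among them. *B2m*, the light chain of MHC class I, was listed at 0 in E14 ESCs and was at 20.7 FPKM in CJ7, 65.3 FPKM in Suz12delta and 35.2 FPKM in Eednull ESCs, and at 11.9 FPKM in E14 cells at day 5. *Gpc3*, a glypican gene, was listed at 0 in CJ7 and was at 26.4 FPKM in E14 and 39.4 FPKM in Eednull ESCs. *Cbx6*, a Polycomb chromobox gene, was listed at 0 in CJ7 and was at 12.9 FPKM in E14 and 13.7 FPKM in Eednull ESCs. *Sdcbp* and *Nsmaf*, overlapping genes on chromosome 4, were both listed at 0 in CJ7 and in Eednull ESCs and were at 32.8 and 34.8 FPKM in E14. The ribosomal protein gene *Rps24* was at 426 FPKM in E14 and 360 FPKM in CJ7, and was listed at 0 in Suz12delta and Eednull ESCs. *Rpl13*, another such gene, was listed at 0 in all 8 libraries. These genes were chosen after their values were seen, and whether a 0 stands for a failed estimate was not tested.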
